A study of Rattus norvegicus with 111 samples.

Results

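The livers described here came from pregnant rats given PFO5DoA at 1 mg/kg/d, set against livers of pregnant rats given the vehicle. Of 111 libraries in the whole series, 8 belong to this comparison: maternal liver of 3 dams at 1 mg/kg/d (dams 2271, 2272 and 2273) and of 5 dams at 0 mg/kg/d (dams 2263, 2264, 2265, 2278 and 2280). All dams were time-mated Sprague-Dawley rats of the Crl:CD(SD) stock, about 11 to 12 weeks old, and all were pregnant and received 0.5% Tween-80 by mouth, with or without the chemical, from gestational day 18 to 22. Livers were taken 2 to 4 hours after the last dose, and dams had been spread over the dose groups by weight block. Each library is bulk liver of a separate animal, so fewer cells of a type and less RNA per cell cannot be told apart. RNA was measured with TempO-Seq, in which pairs of detector probes are ligated on their target RNA and the ligation products are sequenced. A gene is therefore seen only where its probe lies.

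The column headers of the count tables name the dam but not the life stage, so maternal and fetal columns were told apart by their values. Of a dam's pair of columns, the one whose log2(CPM + 1) over all rows correlated more strongly with the single column of dam 2286, labelled maternal, was taken as maternal (CPM, counts scaled to the library total). In the 8 dams Pearson's r with that column was 0.943 to 0.979 for the columns taken as maternal and 0.872 to 0.901 for the others. The gap within a dam was 0.057 to 0.101, smallest in control dam 2263, and Spearman's rho gave the same assignment for every column. A sixth control dam, dam 2279, was dropped because its other column held 45505 counts. The tables identify genes by Ensembl ID, and 0 of 20311 IDs matched a gene name in the reference tables used here, so markers of liver cell types could not be looked up and the liver label was not checked against them. Genes are described as sets, with 4 IDs as examples.

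PFO5DoA and its shorter homologue PFO4DA are perfluoroalkyl ether carboxylic acids. PFO5DoA has a further difluoromethylene-oxy unit in its chain. Perfluorinated carboxylic acids resemble fatty acids in shape, and several are known to activate the nuclear receptor PPARα in rodent liver, where it controls genes of fatty acid oxidation. In late pregnancy the maternal liver handles a high flow of lipid, and some of these acids pass the placenta to the fetal liver. None of this could be read from the IDs here. The design asks how liver expression in dams and fetuses changes with dose of either chemical.

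Totals of the 8 maternal columns lay between 7740148 and 15254939 counts. Control column 2263 stood apart. Its Pearson's r with the other 7 columns was 0.901 to 0.937 over 8348 genes, whereas those 7 correlated with each other at 0.961 to 0.981. In it, 117 genes lay at least 4-fold from the median of the other controls, against 17 to 42 genes in each other control column. Over the PFO4DA libraries, 23 IDs had a median of at least 50 CPM in fetal and at most 0.5 CPM in maternal columns. Their summed level was 8.66 CPM in column 2263, 5.23 to 8.26 CPM in the other maternal columns and 1750 to 3960 CPM in the fetal columns. The reverse set of 3 IDs summed to 92.5 to 297 CPM in the maternal columns and 1.21 to 2.23 CPM in the fetal columns, except the fetal column of control 2278 at 46.5 CPM. Maternal calls at 1 against 0 mg/kg/d are given with and without column 2263 where it changes them. Fetal fold changes and calls include the fetal column of control 2278.

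At 1 mg/kg/d, 48 of 10615 tested genes differed from the controls, and nearly all of them were higher. In edgeR's quasi-likelihood test at an adjusted p under 0.05, 45 genes rose and 3 fell. The log2 fold changes of the rises ran from 0.70 to 5.46 with a median of 1.71, and the median over all tested genes was -0.04. The rises were chosen for being higher, and 3 dosed dams limit what small changes could be called. Their size is therefore a description. Of the 45 rises, 41 were at least 2-fold and 19 at least 4-fold. The 3 falls had log2 fold changes of -1.35, -1.33 and -0.96. The called genes made up 0.452% of those tested, 0.424% higher and 0.0283% lower, and 9.79% of genes had an unadjusted p under 0.05. Adjusted p reached 0.0482 among the called genes and began at 0.0505 outside them, and a further 6 genes, 4 of them higher, lay between 0.05 and 0.1.

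The count depended on the tool and on the samples in the fit. DESeq2 called 98 genes, 78 higher and 20 lower, among them all 48. All 6 analysed doses shared an estimate of the spread, which gave 17 residual degrees of freedom. With the 8 columns alone 12 genes were called, all higher, and all 12 were among the 48. With controls 2263, 2264 and 2265 alone, whose dam numbers run on to those of the dosed dams, 4 were called. With the same controls and all doses in the fit there were 29, and with controls 2278 and 2280 there were 25, both fits chosen after the data were seen. Leaving out dosed dam 2272 left 20 called genes, leaving out dosed dam 2273 left 31, and leaving out control 2263 left 32, all 32 of them higher. Of the 48 genes, 18 were called whichever of the 8 dams was left out, and all 18 were rises. All 48 kept their sign under every alternative fit that was run.

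**Figure D1:**
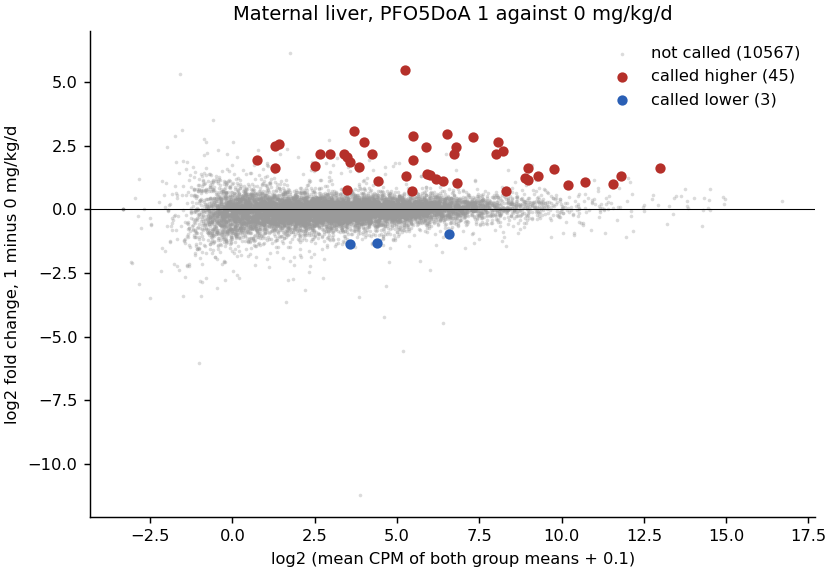
Log2 fold change in maternal liver (1 minus 0 mg/kg/d PFO5DoA, vertical axis) against mean level (log2 of the mean CPM of both groups plus 0.1, horizontal axis) for the 10615 tested genes, 1 point a gene. The 45 called rises (red) reach from low to very abundant genes, and the 3 called falls (blue) lie between -0.96 and -1.35. Several uncalled genes (grey) had larger values.

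The 45 rises covered a wide range of abundance. Their control means ran from 0.667 to 4000 CPM with a median of 33.3 CPM, against 8.81 CPM over all tested genes. Under 5 CPM lay 12 of them, 21 lay from 5 to 100 CPM, and 12 were at 100 CPM or more, 4 of these at 1000 CPM or more. Their summed level was 7280 CPM in control 2263 and 13600, 15400, 14900 and 12200 CPM in controls 2264, 2265, 2278 and 2280. In the dosed dams it was 35200 CPM in dam 2271, 34200 CPM in dam 2272 and 31100 CPM in dam 2273. Every dosed dam was thus more than 2-fold above every control. The mean rose from 12700 ± 3270 CPM (SD, n = 5) to 33500 ± 2150 CPM (SD, n = 3). The genes were chosen for being higher, so these sums carry no test. The most abundant gene made up 36.9% of the dosed sum, and the 3 most abundant made up 64.4%.

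The most abundant of the rises stood at 2028, 3841, 5588, 5102 and 3420 CPM in controls 2263, 2264, 2265, 2278 and 2280. It stood at 13647, 12266 and 11176 CPM in dams 2271, 2272 and 2273. No dosed level came near the highest control, and its log2 fold change was 1.63 (SE 0.32, edgeR adjusted p = 0.0147). The next most abundant gene went from 2070 ± 786 CPM (SD, n = 5) to 5150 ± 533 CPM (SD, n = 3), with its lowest control, 743 CPM, in dam 2263. The third went from 2020 ± 583 to 4050 ± 409 CPM and the fourth from 1080 ± 288 to 2250 ± 492 CPM (SD, n = 5 and n = 3). In all 4 the lowest control was dam 2263.

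The rise with the smallest adjusted p was of middling abundance. Its controls were 23.2, 41.5, 34.4, 46 and 53.1 CPM in the order above, and its dosed levels were 290, 300 and 251 CPM. The dosed dams lay close together and well above the controls, with a log2 fold change of 2.82 (SE 0.24, edgeR adjusted p = 8.1e-08). The evenest rise held 475, 478 and 514 CPM in the dosed dams against 63.5 to 128 CPM in the controls. At the small end, a gene at 221 to 271 CPM in the controls stood at 402, 415 and 372 CPM in the dosed dams, with a log2 fold change of 0.70 (SE 0.14, edgeR adjusted p = 0.0192). For this gene the columns of each group differed little.

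The largest rise was ENSRNOG00000055221. It was close to the lower end of detection in the controls, at 1.00, 1.74, 1.83, 2.05 and 1.79 CPM in dams 2263, 2264, 2265, 2278 and 2280. In dams 2271, 2272 and 2273 it stood at 26.9, 120 and 75.6 CPM. The groups were far apart, although the dosed dams themselves differed 4.45-fold. Its mean went from 1.68 ± 0.398 CPM (SD, n = 5) to 74.1 ± 46.5 CPM (SD, n = 3), a log2 fold change of 5.46 (SE 0.44, edgeR adjusted p = 1.1e-07). It was called under every alternative and with any dam left out, with log2 fold changes of 4.93 to 5.86 when a dam was left out.

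The second largest rise, ENSRNOG00000036641, rested on fewer dams. Its controls were 1.27, 3.09, 5.69, 2.05 and 1.39 CPM, and dams 2271, 2272 and 2273 held 5.08, 18.5 and 45.2 CPM. Dam 2271 lay below control 2265, so the groups overlapped, and the dosed dams spanned 8.9-fold, the widest of the 45 rises. The log2 fold change was 3.07 (SE 0.56, edgeR adjusted p = 0.0147). Without dam 2273 it was 2.11 with an adjusted p of 0.155, and without control 2263 it was 2.88 with an adjusted p of 0.0604, both in edgeR. With the 8 columns alone the adjusted p was 0.234. A further rise also overlapped, at 36.4 to 76 CPM in the controls and 62.3, 133 and 147 CPM in the dosed dams, again with dam 2271 lowest.

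For 43 of the 45 rises every dosed column lay above every control column, where 3.27% of all tested genes did so. For the 3 falls every dosed column lay below every control, against 2.94% of all tested genes. The rule chose these genes on the same columns, so nothing is read from those counts. Among the dosed dams the highest level of a rise lay in dam 2271 for 12 genes, in dam 2272 for 16 and in dam 2273 for 17. The lowest lay in dam 2271 for 23 genes, in dam 2273 for 18 and in dam 2272 for 4. The ratio of the highest to the lowest dosed dam had a median of 1.53 and was 2 or more for 13 rises. Giving each gene equal weight, the median log2 ratio to the control mean (0.1 CPM added) over the 45 rises was 1.44, 1.73 and 1.69 in dams 2271, 2272 and 2273. In control 2263 that median was -0.72, against 0.05 to 0.16 in the other controls. Dam 2263 was the lowest control for 31 of the 45 rises and for 31.8% of all tested genes. Without this column 32 rises were called, 31 of them among the 45.

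**Figure D2:**
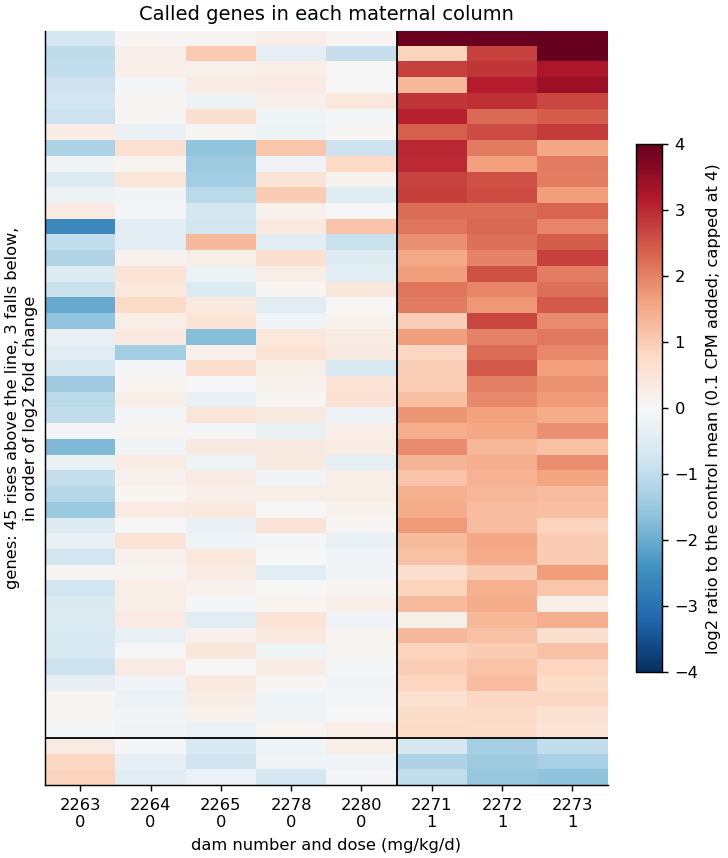
Log2 ratio of each column's level to the mean of the 5 controls (0.1 CPM added to both, colour capped at 4 either way) for the 45 rises and 3 falls (rows, in order of log2 fold change) in the 8 maternal columns (dam number and dose below each). The dosed columns are red for the rises, and control 2263 is bluer than the other controls in most of these rows, with a median of -0.72.

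The falls were few and modest, and their calls depended on which dams entered the fit. ENSRNOG00000000827 stood at 31.8, 12.5, 14.3, 10.5 and 16.0 CPM in controls 2263, 2264, 2265, 2278 and 2280 and at 8.58, 5.91 and 5.48 CPM in dams 2271, 2272 and 2273. Dam 2263 was well above the other controls, and all dosed dams were below all controls. The mean went from 17 ± 8.51 to 6.66 ± 1.68 CPM (SD, n = 5 and n = 3), a log2 fold change of -1.35 (SE 0.31, edgeR adjusted p = 0.0384). ENSRNOG00000060052 stood at 52.9, 23.4, 17.1, 27.5 and 27.1 CPM in the controls and 12.5, 10.9 and 12.0 CPM in the dosed dams. It again had its highest control in dam 2263, and the dosed dams were nearly equal. Its mean went from 29.6 ± 13.7 to 11.8 ± 0.827 CPM (SD, n = 5 and n = 3), a log2 fold change of -1.33 (SE 0.28, edgeR adjusted p = 0.025). Without dam 2263 the log2 fold changes were -0.99 and -1.01 with adjusted p of 0.0939 and 0.0549 in edgeR, and no fall was called. With dam 2263 left out and the maternal column of dam 2279 in its place, a fit chosen after the data were seen, both were called again. Their log2 fold changes were then -1.08 and -1.06 with edgeR adjusted p of 0.0262 and 0.0158, and 53 genes were called in all, 49 higher and 4 lower. Both calls were also lost without dam 2271, 2272 or 2273 and with the 8 columns alone, and that of ENSRNOG00000000827 without control 2280. The third fall lay between 83.4 and 159 CPM in the controls and at 80.3, 49.8 and 64 CPM in dams 2271, 2272 and 2273.

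Some uncalled genes had larger changes, each with a wide error. Among genes outside the 48, 7 had a log2 fold change of 4 or more either way, and 5 of them were lower. The lowest of these was -11.21 (SE 5.37), and the smallest edgeR adjusted p among the 5 was 0.493.

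The neighbouring doses place 1 mg/kg/d between a dose with no called gene and one with several times as many. All PFO5DoA doses were compared with the same 5 controls, so their fold changes share those columns and are set side by side without a test between them. The rises were chosen against these controls too, which favours their fold changes, unadjusted p and calls at the other doses. Those values are therefore a description and no independent check. At 0.3 mg/kg/d (3 dams) edgeR called 0 genes, with a smallest adjusted p of 0.373, while 562 genes (5.29%) had an unadjusted p under 0.05. No other tool was run at that dose. The 45 rises had a median log2 fold change of 0.70 there (all tested genes -0.03), and 24 of them had an unadjusted p under 0.05. At 3 mg/kg/d (4 dams) all 45 were called higher, as were 1.81% of all tested genes, and their median was 2.46. At 10 mg/kg/d (4 dams) all 45 were called higher (6.63% of all genes) with a median of 3.21. At 30 mg/kg/d (4 dams) 44 were called higher (19.5% of all genes) with a median of 3.39. The gene not called at 30 mg/kg/d was a scarce one, at 0.193 to 1.79 CPM in the controls, whose log2 fold change was 2.54 at 1 mg/kg/d but 0.61 at 30 mg/kg/d.

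In summed level the rises stood at 19900, 17500 and 15100 CPM in the 3 dams at 0.3 mg/kg/d. They reached 40900 to 63400 CPM at 3 mg/kg/d, 62900 to 74300 CPM at 10 mg/kg/d and 48700 to 80700 CPM at 30 mg/kg/d. The 31100 to 35200 CPM at 1 mg/kg/d lie between those of the neighbouring doses with no overlap on either side. The genes were chosen for being higher in the columns at 1 than at 0 mg/kg/d, which favours the gap from 0.3 mg/kg/d. Group means stood in the order 0, 0.3, 1, 3 and 10 mg/kg/d for 41 of the 45 rises. The choice of genes fixed the place of 0 below 1 mg/kg/d, and the share of all tested genes in this order was not counted. The order held up to 30 mg/kg/d for 21 rises, and 22 rises had a higher mean at 10 than at 30 mg/kg/d. The mean at 30 mg/kg/d was at least 2-fold that at 10 mg/kg/d for 3 rises and under 0.5 times it for 2. The mean at 1 mg/kg/d was at least 0.5 times that at 3 mg/kg/d for 30 rises, at least 0.5 times that at 10 mg/kg/d for 16 and at least 0.5 times that at 30 mg/kg/d for 17.

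ENSRNOG00000055221 climbed over the whole range. It stood at 1.59, 7.88 and 3.12 CPM at 0.3 mg/kg/d, where 1 dam lay among the controls. It reached 326 to 718 CPM at 3 mg/kg/d, 672 to 933 CPM at 10 mg/kg/d and 942 to 1550 CPM at 30 mg/kg/d. ENSRNOG00000036641 stood at 2.84 to 8.07 CPM at 0.3 mg/kg/d, 15.4 to 64.1 CPM at 3 mg/kg/d, 60.5 to 70.7 CPM at 10 mg/kg/d and 37.2 to 56.3 CPM at 30 mg/kg/d. It was highest at 10 mg/kg/d. Of the falls, ENSRNOG00000000827 stayed low at higher doses, at 4.2 to 7.69 CPM, 3.82 to 7.01 CPM and 3.74 to 6.0 CPM at 3, 10 and 30 mg/kg/d. ENSRNOG00000060052 stood at 15.9 to 27.6 CPM, 22.9 to 26.3 CPM and 12.1 to 26.0 CPM at those doses. Against the controls its log2 fold changes there were -0.37, -0.29 and -0.78 with edgeR adjusted p of 0.475, 0.45 and 0.0152, so it was called lower at 30 mg/kg/d but not at 3 or 10 mg/kg/d. Falls called lower numbered 0 of 3 at 0.3 mg/kg/d (0 genes called lower), 2 at 3 mg/kg/d (0.838% of all genes), 2 at 10 mg/kg/d (7.39%) and all 3 at 30 mg/kg/d (20.3%).

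**Figure D3:**
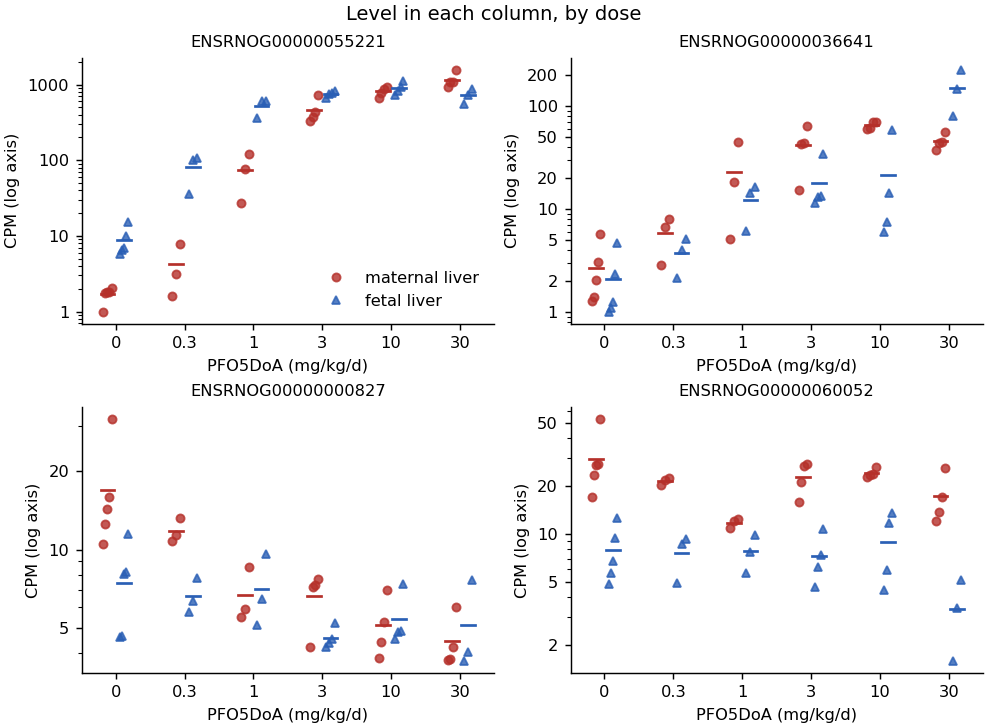
Level (CPM, log axis) of the 4 example IDs in each column by PFO5DoA dose (mg/kg/d, even steps), with maternal columns as red circles, fetal columns as blue triangles and a bar at each group mean; maternal and fetal columns were scaled separately. Maternal ENSRNOG00000055221 climbs at each dose to 942 to 1550 CPM at 30 mg/kg/d, and maternal ENSRNOG00000060052 is lowest at 1 mg/kg/d, at 10.9 to 12.5 CPM.

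The steps between neighbouring doses were tested directly. From 1 to 3 mg/kg/d 9 genes rose and 0 fell (edgeR, adjusted p under 0.05), 0.0848% of those tested, by 1.04 to 2.65 on the log2 scale. Among the 9 were 5 of the 45 rises, and the other 4 had adjusted p of 0.119 to 0.131 at 1 against 0 mg/kg/d. ENSRNOG00000055221 was 2.65 log2 units higher at 3 than at 1 mg/kg/d (edgeR adjusted p = 0.0106). Of the 45 rises 42 were higher at 3 than at 1 mg/kg/d, with a median difference of 0.80 (all genes 0.02), and 25 had an unadjusted p under 0.05 (5.87% of all genes had). The count of 9 was 0 without dam 2271 or 2273, 1 without dam 2272 or 2281, 4 without dam 2274 and 25 with DESeq2.

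From 0.3 to 1 mg/kg/d 6 genes rose (0.0565%) and 0 fell, by 1.56 to 4.14 on the log2 scale, and all 6 were among the 45 rises. ENSRNOG00000055221 had the largest step, 4.14 (edgeR adjusted p = 0.000326). The median step of the 45 rises was 1.08, and 36 had an unadjusted p under 0.05 (2.81% of all genes had). Both steps use the columns at 1 mg/kg/d on which the rises were chosen, which favours the step from 0.3 and works against the step to 3 mg/kg/d. The count of 6 was 2 without dam 2268 and 17 with DESeq2, 13 higher and 4 lower.

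More genes were called in the fetal livers of the same dams, and most maternal rises were also higher there. The maternal and fetal counts come from separate fits over different sets of genes and are set side by side without a test. The labels do not say how many fetuses gave a fetal library. In the fetal columns at 1 mg/kg/d edgeR called 276 of 11509 genes, 200 higher (1.74%) and 76 lower (0.660%). Of the 45 maternal rises 43 were tested in the fetal columns, 33 were called higher and 42 had a positive fold change. These 33 are 73.3% of the maternal rises and 16.5% of the fetal rises. The 43 had a median log2 fold change of 1.93 in fetal liver (all genes -0.04) and 1.65 in maternal liver, and 24 were larger in the fetus. Of the 3 maternal falls 0 were called in fetal liver, where their log2 fold changes were 0.14, -0.02 and -0.07 with edgeR adjusted p of 0.619, 0.983 and 0.921.

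Control levels of the rises in both livers are given on a scale set over both. The rises had to pass the level filter in maternal columns. The 11994 genes behind the shares of all genes could also pass through fetal columns. A lean of the rises to the maternal side is therefore favoured by how they were chosen. In 32 of 45 rises the maternal controls were higher than the fetal controls, against 47.6% of all genes. At least 4-fold higher in the maternal controls were 10 of the 45 (6.56% of all genes), and 2 were at least 4-fold higher in the fetal controls (11% of all genes). ENSRNOG00000055221 ran the other way. In fetal liver, scaled on its own, it stood at 5.75 to 15.3 CPM in the controls and at 365, 602 and 601 CPM in the fetuses of dams 2271, 2272 and 2273, a log2 fold change of 5.88 (SE 0.34, edgeR adjusted p = 5.15e-10). The dam with the lowest maternal level also had the lowest fetal level. ENSRNOG00000036641 stood at 1.01 to 4.7 CPM in fetal controls and at 6.16, 16.3 and 14.2 CPM in the fetuses of dams 2271, 2272 and 2273, with an edgeR adjusted p of 0.0691.

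The difference between the livers was tested as an interaction over 11994 genes, in a fit of group means with no block for dam. Maternal and fetal columns of the same dam were thus treated as independent. The interaction test called 12 genes (0.100%), 2 with the change further up in maternal (0.0167%) and 10 further up in fetal liver (0.0834%). Of the 45 rises 3 were among the 12, and all 3 rose more in the fetus. The first went from 116 ± 27.6 to 570 ± 25.9 CPM in maternal liver and from 74.8 ± 60 to 3120 ± 1240 CPM in fetal liver (SD, n = 5 and n = 3, scaled over both livers), a maternal minus fetal difference of -3.09 log2 units (interval -4.40 to -1.78, edgeR adjusted p = 0.0426). The second went from 284 ± 39.2 to 890 ± 125 CPM and from 80.1 ± 14.2 to 1050 ± 421 CPM, maternal and fetal. The third, a gene abundant in maternal and scarce in fetal liver, went from 414 ± 114 to 1040 ± 305 CPM and from 5.77 ± 2.13 to 93.6 ± 49.9 CPM. Its log2 fold change was 1.31 in maternal and 4.00 in fetal liver.

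A gene outside the 48, called in the interaction test, had fold changes of opposite sign, of which only the fetal one was called. In maternal liver it stood at 4.41 to 19.3 CPM in the controls and 1.75 to 2.25 CPM in the dosed dams, and in fetal liver at 1.85 to 4.41 CPM and 7.77 to 15.5 CPM. The maternal log2 fold change was -2.25 (edgeR adjusted p = 0.195) and the fetal one 2.17 (edgeR adjusted p = 0.022). For 29 of the 45 rises the interval of the difference included 0, and 14 had an unadjusted p under 0.05 (13.8% of all genes had). The difference for ENSRNOG00000055221 was -0.42 (interval -1.53 to 0.69, edgeR adjusted p = 0.775), and that for ENSRNOG00000036641 was 0.51 (interval -1.38 to 2.40). Intervals are 95% normal intervals from the standard error. For the falls the difference was -1.29 for ENSRNOG00000000827 (interval -2.13 to -0.44, edgeR adjusted p = 0.221) and -1.31 for ENSRNOG00000060052 (interval -2.30 to -0.32), neither called. The count of 12 moved widely: it was 0 without dam 2272, 2273 or 2280, 3 without dam 2271, 109 without control 2264 and 75 with DESeq2. It was 1 without control 2263, whose maternal column stands apart, and control 2278, whose fetal column held more of the maternal set. That pair was chosen after the data were seen.

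At the same dose the shorter acid gave no called gene. In 4 dams at 1 mg/kg/d PFO4DA against 6 control dams of their own, edgeR called 0 of 10263 genes (0.00%), with 221 genes (2.15%) at an unadjusted p under 0.05, and DESeq2 called 1, a lower gene. The 45 rises had a median log2 fold change of 0.05 there, and 28 were positive. The difference between the acids at 1 mg/kg/d was tested as an interaction over 10951 genes. In it 14 genes differed (edgeR, adjusted p under 0.05), 0.128% of those tested. All 14 were among the 45 rises and all changed more under PFO5DoA, by 1.27 to 6.17 log2 units. The difference was positive with an interval above 0 for all 45 rises, with a median of 1.73, against an unadjusted p under 0.05 in 6.03% of all genes. The rises were chosen from the PFO5DoA columns that enter this difference, so that count is a description. The acids were matched in dose by weight and not in dose reaching the liver, which was not analysed here.

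ENSRNOG00000055221 differed most. Under PFO4DA it stood at 0.579 to 1.73 CPM in the controls and at 0.491, 0.651, 0.703 and 0.42 CPM at 1 mg/kg/d. Those levels are all under 1 CPM, and the dosed and control ranges overlap. Its log2 fold change was -0.70 under PFO4DA and 5.46 under PFO5DoA, a difference of 6.17 (interval 4.38 to 7.96, edgeR adjusted p = 9.18e-05). ENSRNOG00000036641 stood at 1.66 to 6.76 CPM in the PFO4DA controls and at 10.8, 3.58, 2.41 and 1.89 CPM at 1 mg/kg/d. Its difference was 2.59 (interval 0.62 to 4.56, edgeR adjusted p = 0.758). The difference for the fall ENSRNOG00000000827 was -1.36 (interval -2.18 to -0.54, edgeR adjusted p = 0.485).

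**Figure D4:**
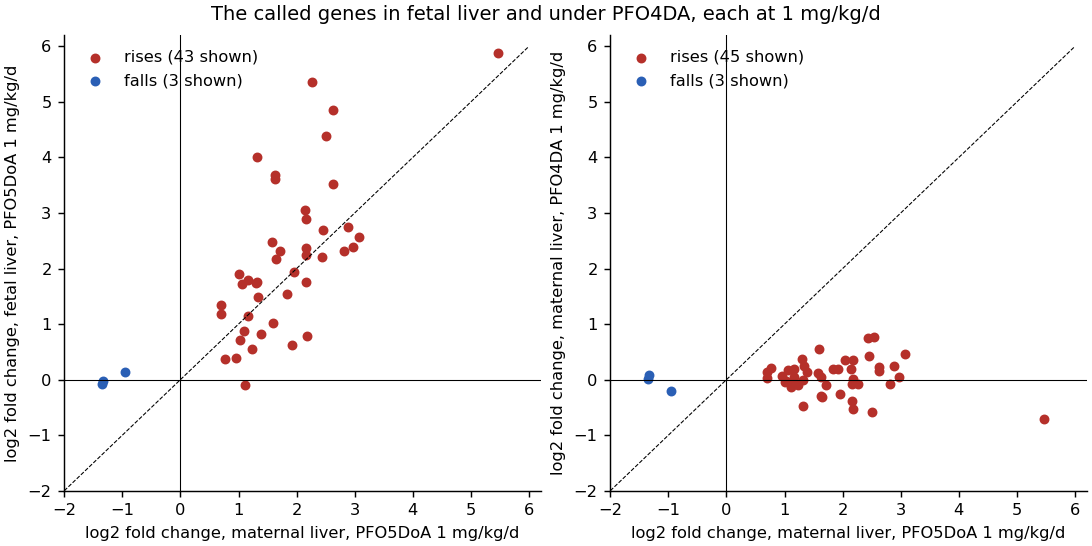
Log2 fold change of the called genes (rises red, falls blue, 1 point a gene) in fetal liver at 1 mg/kg/d PFO5DoA (left) and in maternal liver at 1 mg/kg/d PFO4DA (right), each against that in maternal liver at 1 mg/kg/d PFO5DoA, with the line of equality dashed. In fetal liver 42 of 43 rises lie above 0, and under PFO4DA the rises lie around 0 with a median of 0.05.

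Higher doses of PFO4DA moved many of the same genes. At 10 mg/kg/d PFO4DA 1 of the 45 rises was called higher (0.00974% of all genes) and their median log2 fold change was 0.51. At 30 mg/kg/d 24 were called higher, where 0.614% of all genes were. Those 24 are 53.3% of the 45 and 38.1% of the rises at that dose, and the median was 1.30. At 62.5 mg/kg/d 33 were called higher (1.80% of all genes), 73.3% of the 45 and 17.8% of the rises at that dose, with a median of 1.72. For 19 of the 45 the log2 fold change at 62.5 mg/kg/d PFO4DA was above that at 1 mg/kg/d PFO5DoA. These doses differ, so the values are set side by side with no test. ENSRNOG00000055221 stood at 1.68 to 18.2 CPM at 10 mg/kg/d PFO4DA, 42.5 to 132 CPM at 30 mg/kg/d and 136 to 286 CPM at 62.5 mg/kg/d. The level at 30 mg/kg/d PFO4DA thus overlapped the 26.9 to 120 CPM at 1 mg/kg/d PFO5DoA, on scales set separately for each table. None of the 3 falls was called lower at any PFO4DA dose from 0.3 to 62.5 mg/kg/d (at 30 mg/kg/d 0.0195% of all genes were, and 0.653% were at 62.5 mg/kg/d).

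**Figure D5:**
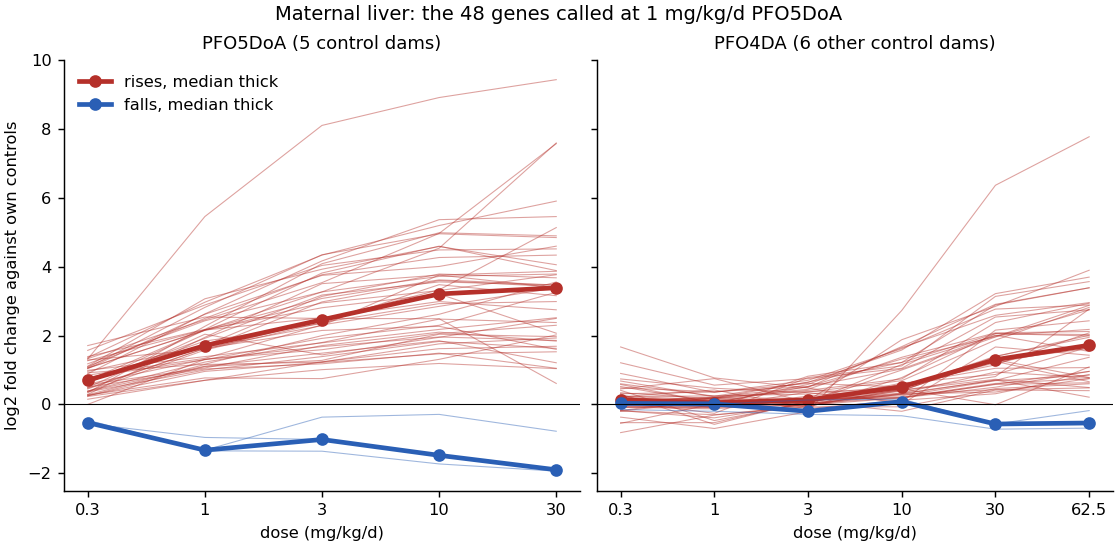
Log2 fold change against the chemical's own controls in maternal liver for the 45 rises (red) and 3 falls (blue) at each dose (mg/kg/d, even steps) of PFO5DoA (left) and PFO4DA (right), 1 thin line a gene and the median thick. The median of the rises is 1.71 at 1 mg/kg/d PFO5DoA and 1.72 at 62.5 mg/kg/d PFO4DA; doses within a panel share controls.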

How the data were processed

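The authors deposited 1 table for each chemical, which holds unnormalized estimated counts, a row a gene and a column a library. Decimals occurred in 12.2% (PFO5DoA) and 11.8% (PFO4DA) of the values. The panel held 22253 probes for 20924 genes per the labels. Per the submitters' processing notes, Partek, STAR 2.7.8a, DESeq2 and the build mRatBN7.2 were used; which tool made the tables is not given in the sources used here. Columns were mapped to dose groups through the dam number in the header, and to life stage by values as described, since no label does so.

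Estimated counts were rounded and tested in R 4.3.3 by edgeR 4.0.16 (glmQLFit with robust moderation, glmQLFTest, filterByExpr, TMM factors) over all analysed maternal columns of PFO5DoA. Called means a Benjamini-Hochberg adjusted p under 0.05. Differences between livers or acids were interaction contrasts in joint fits, with no block for dam in the main fit of both livers. Dams at 0.1 mg/kg/d were left out of the fits. Levels are TMM-scaled CPM, and values of n count dams. The code for the edgeR comparisons of 1 with 0 mg/kg/d, of the livers and of the acids was tested on simulated counts; the comparisons of neighbouring doses were not simulated. Alternatives were DESeq2 1.42.0, limma 3.58.1, RLE scaling, no filter, other sample sets, a replicate block and leaving out each dam. Every pair of columns within a group differed beyond sampling noise, the lowest chi-square per df being 36.6, so none was counted as a duplicate.

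The members and lists were chosen with earlier results of these data known. Named genes were to be the largest rises and falls with an adjusted p under 0.05, at least 5 CPM in a group, all dosed columns on 1 side of the control mean, and a gene name. As 0 of 20311 IDs had a name, the rule was applied without that condition and the first 2 each way are given. The gene lists and cell type markers could not be looked up and are not reported.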

Additional observations from a re-analysis of the deposited data

Results flagged for a closer look

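One value far from the others was looked for in 61 sets of 4 to 10 columns, each set a gene or a measure in 1 group. In all, 12 values were flagged, some of them from the same column. For normally distributed values chance flags about 1 in 20 sets. CPM were used without logs, so their chance rate may differ, and the sets share columns. Among the maternal controls of PFO5DoA, dam 2263 stood apart in its median correlation with the other columns (0.915), in the number of genes at least 4-fold from the median of the other controls (117) and in ENSRNOG00000000827 (31.8 CPM). Among the fetal controls, dam 2278 stood apart with 46.5 CPM summed over the 3 IDs of the maternal set. Among single genes at other doses, ENSRNOG00000000827 was low in maternal dam 2282 at 3 mg/kg/d (4.2 CPM) and high in fetal dam 2277 at 10 mg/kg/d (7.34 CPM). ENSRNOG00000036641 was high in fetal dam 2275 at 3 mg/kg/d (34 CPM) and fetal dam 2284 at 10 mg/kg/d (58.4 CPM). Under PFO4DA it was high in control dam 2295 (6.76 CPM) and in dam 2297 at 0.3 mg/kg/d (18.8 CPM). ENSRNOG00000055221 was high in PFO4DA control dam 2310 (1.73 CPM) and in dam 2304 at 10 mg/kg/d (18.2 CPM).

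The change at 1 mg/kg/d PFO5DoA differed between maternal and fetal liver for 12 genes, 3 of them among the rises, with maternal minus fetal differences of -3.09, -2.06 and -2.69 log2 units. The change at 1 mg/kg/d differed between PFO5DoA and PFO4DA for 14 genes, with a difference of 6.17 log2 units for ENSRNOG00000055221.

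The 2 dams at 0.1 mg/kg/d PFO5DoA entered no test. Both were above every control for 5 of the 45 rises, against 3.5% of all tested genes. The rises were chosen for being higher than these same controls, which favours such a count, so nothing is read from it. ENSRNOG00000055221 stood at 0.83 and 0.719 CPM in them, below its control range of 0.982 to 2.01 CPM on the scale of that set of columns. The maternal column of dropped control 2279 lay within the range of the 5 controls for 38 of the 45 rises and below every dosed column for all 45.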

How the results depend on the processing

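No named gene changed its sign under any alternative, but calls were lost: besides fits without single dams, ENSRNOG00000036641, ENSRNOG00000000827 and ENSRNOG00000060052 each lost theirs in 6 of 15 alternatives, and ENSRNOG00000055221 in 0 of 15. The 48 genes called at 1 mg/kg/d PFO5DoA became 98 with DESeq2 (78 higher, 20 lower, all 48 included), 16 against a minimum fold of 1.5, 12 with the 8 columns alone, 4 with controls 2263, 2264 and 2265 alone, and, in fits chosen after the data were seen, 29 with those controls and all doses, 25 with controls 2278 and 2280 and all doses, and 21 with the 8 columns less dam 2263. Leaving out each dam gave 20 to 55 for that count, 0 to 9 for 3 against 1 mg/kg/d, 2 to 6 for 1 against 0.3 mg/kg/d, 0 to 109 for the difference between livers, 11 to 20 for that between acids and 0 throughout for PFO4DA. With DESeq2 the 9 became 25, the 6 became 17, the 12 became 75, the 14 became 29 and the 0 for PFO4DA became 1. Without dams 2263 and 2278 the 12 became 1. RLE scaling, no filter, limma, the dam run as a covariate and dam 2279 kept gave 42 to 54 in place of 48. With dam 2279 in place of dam 2263, chosen after the data were seen, it was 53. Dam run means a split by dam number alone, into 2263 to 2277 and 2278 to 2288. The 3 dosed dams and controls 2263, 2264 and 2265 lie in the first part, controls 2278 and 2280 in the second. Replicate numbers in the titles did not pair the maternal samples: deviations of same-numbered dams at 1 and 0 mg/kg/d correlated at -0.029, -0.101 and 0.008. With the replicate block the 3 losses had adjusted p of 0.126, 0.126 and 0.115, the 48 became 23, the 9 became 3, the 14 became 9 and the 6 became 5, and with dam as the block between livers the 12 became 14. The causes of these shifts were not tested, beyond fewer samples in a fit. Life stage rests on values alone, and 3 dosed dams limit what small changes could be called.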
